A study of Mus musculus with 4 samples.

Results

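The lens crystallin genes are 10 of the 19465 genes in the count matrices: Cryaa and Cryab (alpha crystallins), Cryba1, Cryba2, Cryba4, Crybb1 and Crybb3 (beta crystallins), and Cryga, Crygd and Crygs (gamma crystallins). They were chosen by symbol, with earlier results of these data on lens genes known, so their levels in the lens are given here as a description, with no test. They were measured by Visium spatial transcriptomics in formalin-fixed, paraffin-embedded coronal sections of the wild-type mouse whole head at embryonic day 14.5 (E14.5) and 15.5 (E15.5). The samples are 4 capture areas, named by the replicates on them: E14.5 replicate 1, E14.5 replicate 2,3,4, E15.5 replicate 1 and E15.5 replicate 2,3,4. Each area is 1 library, and a library labelled 2,3,4 pooled 3 sections that the labels do not tell apart, so n is 2 areas per stage. A spot is a small patch of a section and may contain more than 1 cell type.

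Crystallins are the soluble proteins that fill the fiber cells of the lens and give it its transparency and refractive power. The alpha crystallins are small heat shock proteins that act as chaperones, and Cryab is also abundant in muscle, while the beta and gamma crystallins share a fold of repeated Greek key motifs and are packed densely in fiber cells. Lens fibers differentiate from an anterior epithelium that keeps Foxe3, a forkhead factor of lens epithelium, and they switch on crystallin genes under the control of factors such as Pax6, Maf, Sox1 and Prox1.

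The 4 areas held 6357 tissue spots. The totals were 15438992, 109127953, 67344393 and 89128289 UMIs (unique molecular identifiers, 1 per captured molecule) in E14.5 replicate 1, E14.5 replicate 2,3,4, E15.5 replicate 1 and E15.5 replicate 2,3,4, and the median spot held 6752, 45058.5, 64051 and 45471.5 UMIs. Levels below are CPM, UMIs of a gene per 1000000 UMIs of the same spots, and the bracketed range of a CPM is the exact 95% Poisson interval, which covers counting error only. How well each gene is captured is not known, so levels are compared between places and samples for the same gene and not between genes. The 4 areas use the same array addresses by design, and 2161 of 3185 distinct barcodes were seen in at least 2 of them. The sections within an area are lettered A to C here, which says nothing of the replicate number. Sections A and C of E15.5 replicate 2,3,4 touch. The border between them was set by k-means clustering of spot positions and is not a known tissue edge. Spots with a lens signal were found without crystallins. A lens-marker spot had at least 5 UMIs and 200 CPM summed over 9 lens genes. These genes include Mip, Lim2, Bfsp1, Bfsp2, Lgsn, Grifin, Dnase2b and Foxe3. There were 0, 212, 51 and 285 lens-marker spots. In E14.5 replicate 1 these 9 genes had 131 UMIs in all and Foxe3 had 0, so that area holds no lens by these markers, although its label is the whole head. It stands apart in depth as well.

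The 10 genes took very different shares of the areas. They had 1260 UMIs, or 0.00816% of all UMIs, in E14.5 replicate 1, against 722483 (0.662%), 129017 (0.192%) and 725501 (0.814%) in E14.5 replicate 2,3,4, E15.5 replicate 1 and E15.5 replicate 2,3,4. In the area without a lens 1112 of the 1260 were Cryab and 148 came from the other 9 genes together. The order of the areas follows the number of lens-marker spots in them.

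**Figure D1:**
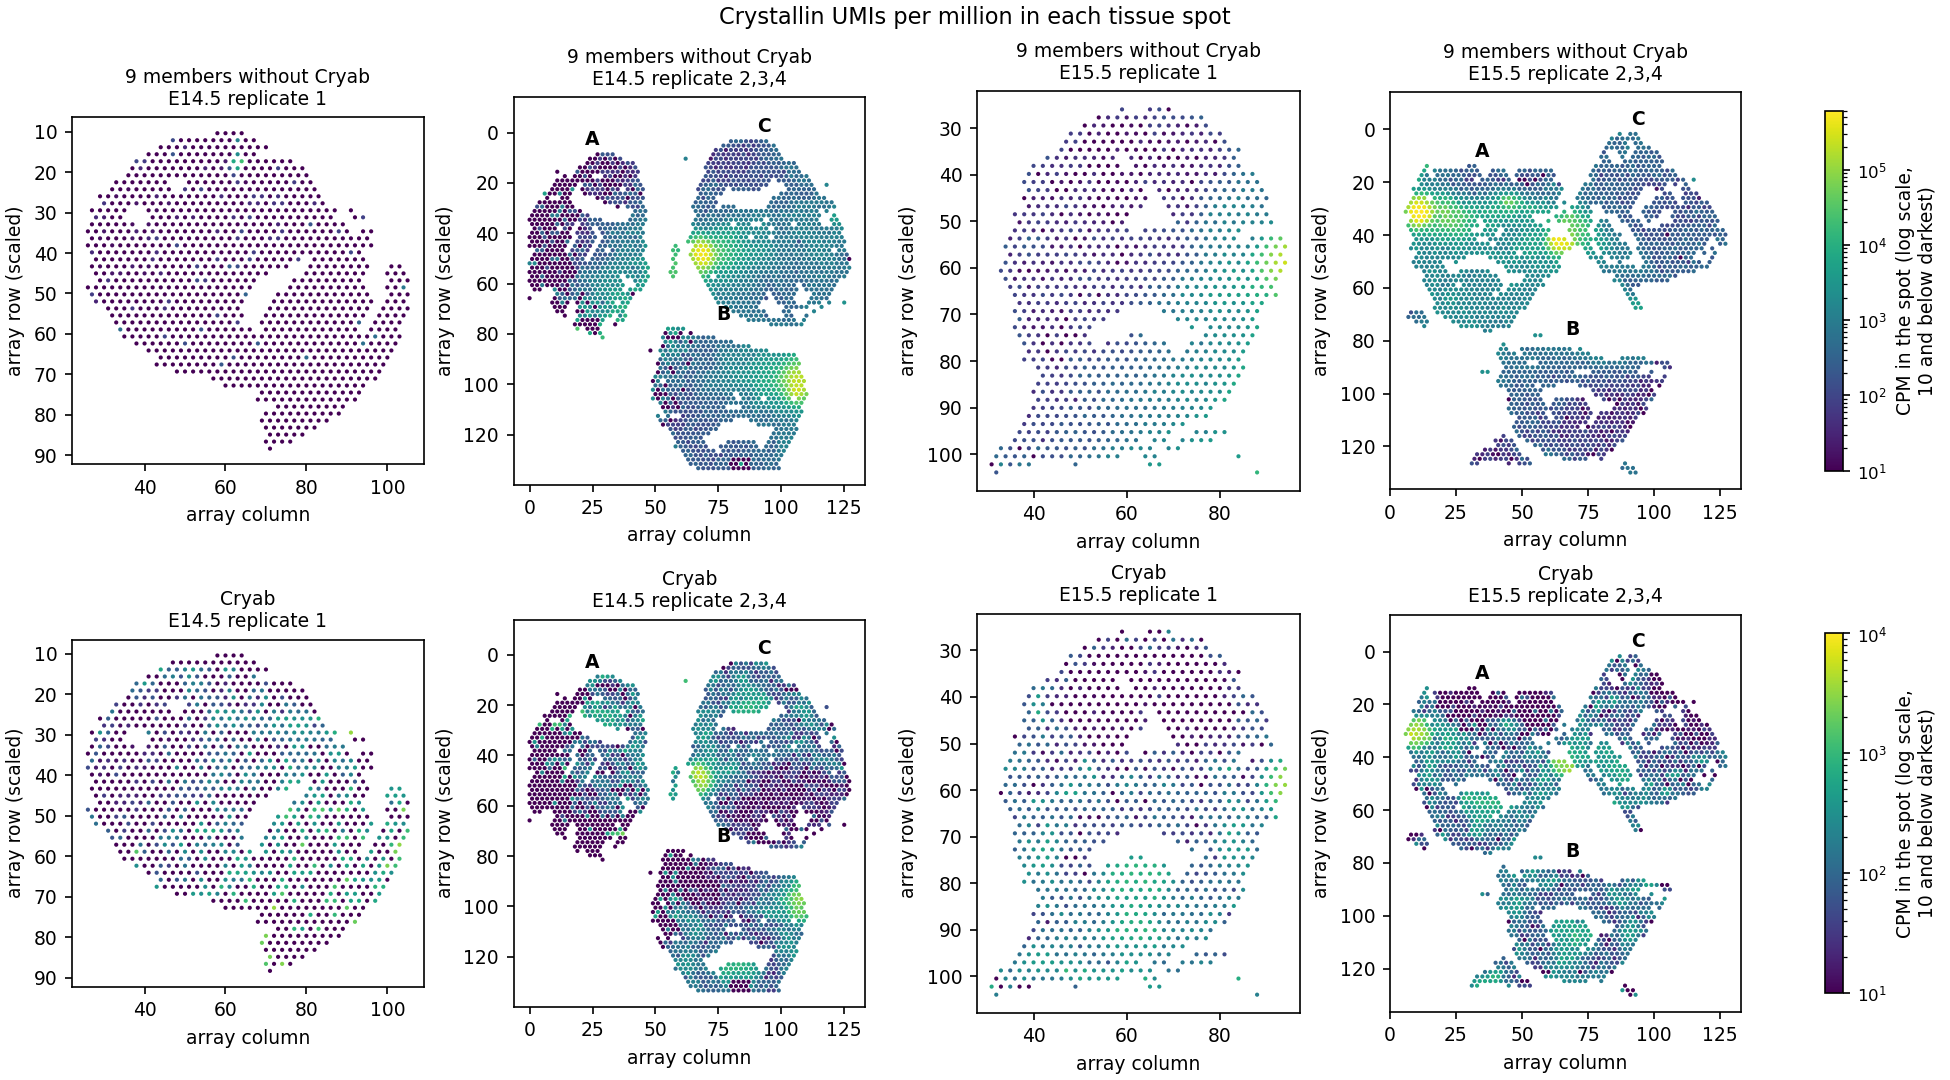
Crystallin CPM in every tissue spot of the 4 capture areas, drawn at the spot's place on the array (columns and scaled rows), for the 9 members without Cryab (top) and for Cryab (bottom). The colour scale is logarithmic and differs between the rows, and letters name sections. The 9 genes peak at 5 main places, with a smaller peak in E15.5 replicate 2,3,4, and fade away from them. Cryab also forms patches far from these places and in E14.5 replicate 1.

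Several of the genes lie close together. On GRCm38 with GENCODE annotation, Cryba4 (chr5:112246493-112252518, minus strand) and Crybb1 (chr5:112255815-112269585, plus strand) are neighbours that point away from each other with 3296 bases between them, and Crybb3 lies on the same chromosome at chr5:113075839-113081584. Crygd (chr1:65061872-65063452) and Cryga (chr1:65100389-65103373) lie 36936 bases apart on the minus strand, and Cryba2 is at chr1:74889934-74893143. The remaining 4 are Cryab at chr9:50751325-50756636, Cryba1 at chr11:77718615-77725283, Crygs at chr16:22805203-22811577 and Cryaa at chr17:31677807-31681733, each alone on its chromosome among the 10. The coding sequences of Cryga and Crygd are 83.8% identical, and that of Crygb, which is not among the 10, is 82.2% identical to Cryga and 81.8% to Crygd. How well the authors' counting told the reads of these 3 genes apart was not tested.

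The promoters of the Cryba4 and Crybb1 pair and of the Cryga and Crygd pair are shown. The genes of each pair are neighbours on a chromosome among the 10. They rose and fell together across spots, but so did the other pairs without Cryab and Crygs, as given below. Each is the 250 bases before the gene's start in RefSeq (GRCm38.p6), 5′ to 3′ on the gene's strand, at chr5:112252519-112252768 for Cryba4, chr5:112255570-112255819 for Crybb1, chr1:65103364-65103613 for Cryga and chr1:65063441-65063690 for Crygd. Capitals mark 3 motifs: TGCTGA, the half-site of Maf factors, and ACAAAG, a core of Sox sites, each on both strands, and TATAAA on the gene's strand.
Cryba4: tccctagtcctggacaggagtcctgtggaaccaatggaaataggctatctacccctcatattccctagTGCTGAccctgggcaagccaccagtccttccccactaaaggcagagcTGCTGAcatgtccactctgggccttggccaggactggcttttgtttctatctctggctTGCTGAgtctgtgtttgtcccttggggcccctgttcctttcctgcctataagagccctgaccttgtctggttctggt
Crybb1: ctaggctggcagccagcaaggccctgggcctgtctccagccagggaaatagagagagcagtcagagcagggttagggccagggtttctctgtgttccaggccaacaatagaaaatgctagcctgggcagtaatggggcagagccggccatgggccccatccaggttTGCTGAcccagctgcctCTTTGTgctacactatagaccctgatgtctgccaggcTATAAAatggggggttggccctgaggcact
Cryga: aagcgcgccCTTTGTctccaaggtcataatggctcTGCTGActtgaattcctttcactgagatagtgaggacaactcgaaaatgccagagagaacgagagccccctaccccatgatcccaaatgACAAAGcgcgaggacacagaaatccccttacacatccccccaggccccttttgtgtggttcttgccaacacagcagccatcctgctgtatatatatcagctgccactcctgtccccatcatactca
Crygd: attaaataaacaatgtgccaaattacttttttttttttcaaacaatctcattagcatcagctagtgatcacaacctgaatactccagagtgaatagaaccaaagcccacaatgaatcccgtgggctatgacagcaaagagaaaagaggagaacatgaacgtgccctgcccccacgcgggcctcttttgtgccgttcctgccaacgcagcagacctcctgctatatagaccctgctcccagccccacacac
Cryba4 has 3 Maf half-sites, which begin 182, 135 and 77 bases before the start, and neither other motif. In Crybb1 a Maf half-site, a Sox core and a TATAAA match begin 84, 67 and 30 bases before it. Cryga has a Maf half-site at 215 and Sox cores at 241 and 126 bases before its start. Crygd holds none of the 3 in this window. Of the 9 members with a RefSeq promoter (all but Cryab), 8 had a Maf half-site, 4 a Sox core and 3 the exact letters TATAAA. Other forms of a TATA box were not counted. Among 32851 RefSeq promoters of the same length the shares were 16.1%, 16.5% and 7.6%. The motifs printed do not overlap each other, and a match of 6 letters is a description and not a binding site.

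Spots with at least 5000 CPM of the lens markers, a limit set after the data were seen, are called lens centre. They fell into 5 connected groups of 3 or more: 22 spots in E14.5 section C, 18 in E14.5 section B, 5 in E15.5 replicate 1, 26 in E15.5 section A and 12 where E15.5 sections A and C meet. The 10 genes together made 26.3%, 18.0%, 17.9%, 31.3% and 30.95% of all UMIs in these centres, in that order. In the single richest spot they made 46.6%, 25.6%, 25.9%, 60.6% and 51.0%. At both peaks of E15.5 replicate 2,3,4 crystallin UMIs outnumbered those of all other genes together. The peak spot of E15.5 replicate 1 had only 3 of 6 neighbours under tissue, so that lens lies at the edge of its section.

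Among the alpha crystallins, Cryaa, the chaperone made mainly in lens, reached 69247 CPM in the centre of E14.5 section C, 33155 in E14.5 section B, 50765 in E15.5 replicate 1, 70411 in E15.5 section A and 68610 at the border of E15.5 sections A and C. The 2 E14.5 centres were the second highest and the lowest, so the stages overlapped. Cryab, its widely expressed relative, had 2760, 1764, 2943, 2519 and 2242 CPM at the same centres. Its highest value was in E15.5 replicate 1, where Cryaa was lower than in 3 of the other 4.

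All 5 beta crystallins, structural proteins of the fiber cell, were at 6090 CPM or more in every centre. Cryba1 had 11997, 12089, 8718, 15111 and 13904 CPM, in the order above. Cryba2 had 18176, 18442, 14294, 22067 and 19826 CPM. Cryba4 had 12053, 10278, 6090, 13842 and 13732 CPM. These 3 acidic members were each lowest in E15.5 replicate 1 and highest in E15.5 section A. The basic member Crybb1 had 34619, 14119, 28704, 38982 and 40176 CPM, and was lowest in E14.5 section B. Crybb3 had 16326, 11441, 10981, 19515 and 19874 CPM. Between the E14.5 centres, Crybb1 was far lower in section B than in section C, while its chromosomal neighbour Cryba4 was only slightly lower.

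Among the gamma crystallins, which mark differentiated fiber cells, Cryga had 49092, 41081, 24981, 65672 and 66131 CPM and Crygd had 49012, 38030, 30976, 64969 and 64954 CPM. Both were higher in the 2 centres of E15.5 replicate 2,3,4 than in either E14.5 centre, and both were lowest in E15.5 replicate 1, so the E15.5 areas lay on both sides of the E14.5 area. Crygs, a gamma crystallin known to be made late in lens development, was low everywhere, at 123, 43.4, 243, 105 and 87.5 CPM. Its order was the reverse of Cryga and Crygd in E15.5 replicate 1, where it was highest.

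**Figure D2:**
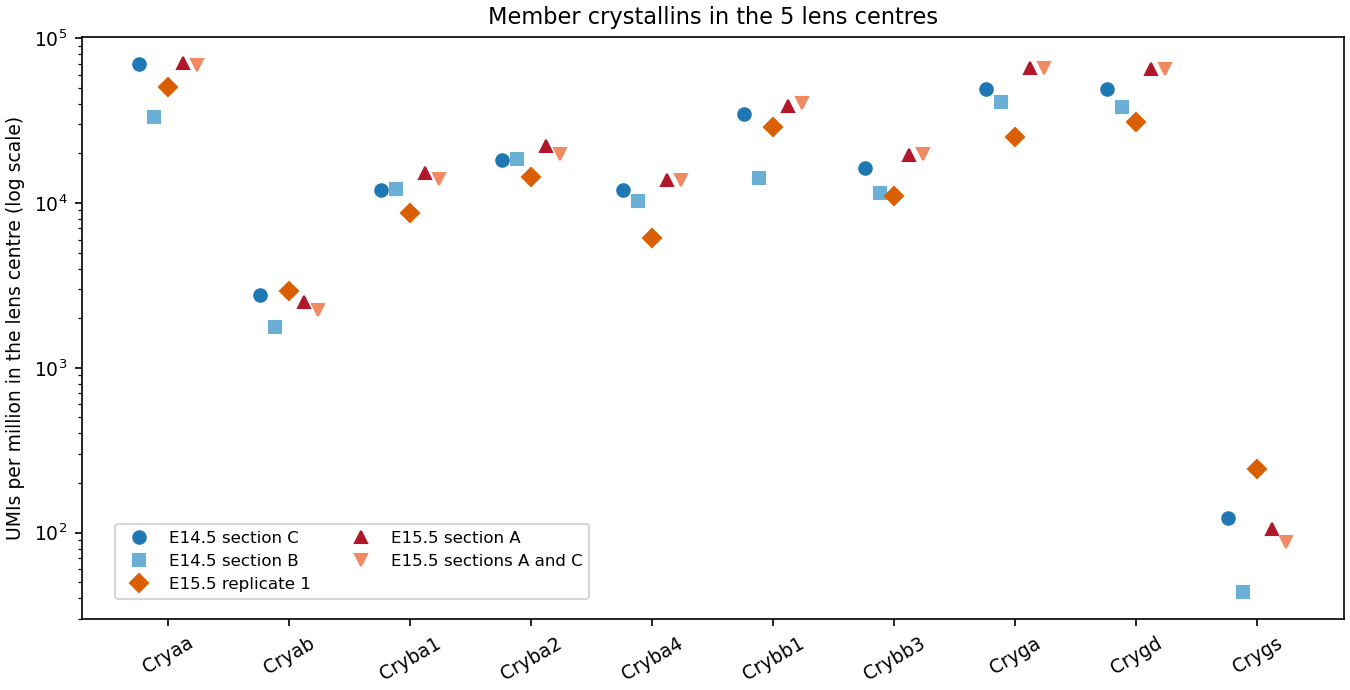
CPM of each member (log axis) in the 5 lens centres, 1 point per centre and no error bar. The 3 centres of the E15.5 areas lie above and below the E14.5 centres for Cryga and Crygd, and Crygs is highest in E15.5 replicate 1 at 243 CPM.

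The mix of crystallins also differed between centres and with the distance from the peak spot. Cryaa made 26.3%, 18.4%, 28.4%, 22.5% and 22.2% of the UMIs of the 10 genes in the 5 centres, and Crybb1 made 13.1%, 7.82%, 16.1%, 12.4% and 12.98%. E14.5 section B was lowest for both. Cryga made 18.6%, 22.8%, 14.0%, 20.97% and 21.4%, with the highest share in E14.5 section B and the lowest in E15.5 replicate 1. From the peak spot of E14.5 section C to 6 spot spacings away, Cryaa rose from 22.0% to 32.4% of the crystallin UMIs and Crygd fell from 23.5% to 12.7%. In E15.5 replicate 1 Cryaa went from 26.1% to 39.7% and Crygd from 20.2% to 9.17% over the same distance. The other 3 centres showed less of this: Cryaa went from 16.4% to 19.96% in E14.5 section B, from 19.97% to 22.8% in E15.5 section A and from 18.9% to 21.6% at the border of sections A and C. In all 5 centres Cryaa had a larger share, and Crygd a smaller one, at 1 spacing than at the peak. Foxe3 UMIs per 1000 lens-marker UMIs changed in the same stretch, from 3.44 at the peak to 14.3 at 3 spacings in E14.5 section C, from 6.11 to 11.4 in E14.5 section B, from 1.91 to 17.3 in E15.5 section A and from 2.51 to 21.9 at the border site, and from 15.9 to 13.2 in E15.5 replicate 1, where it was 29.1 at 1 spacing and 17.1 at 2. These ratios rest on few spots per distance and have no replicate error of their own.

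**Figure D3:**
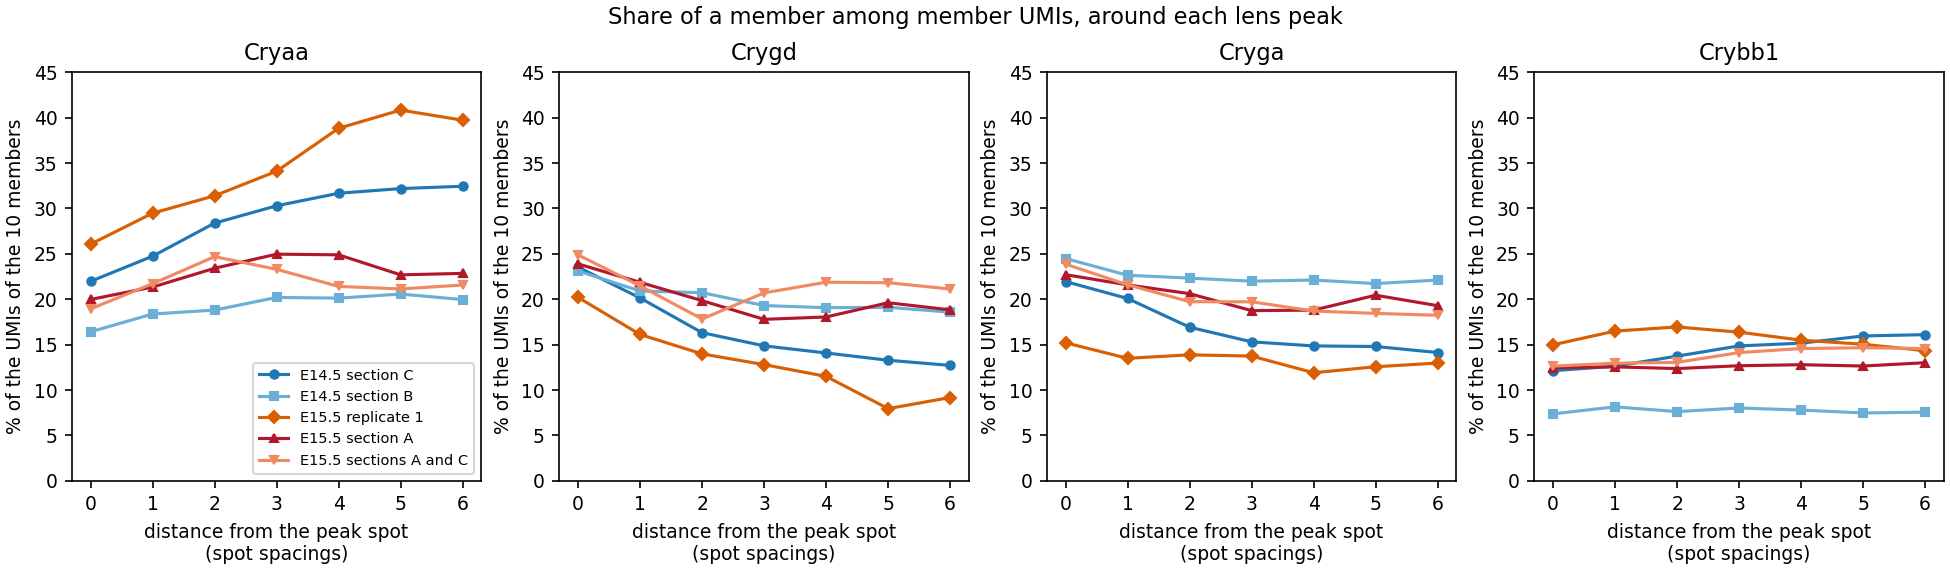
Share of Cryaa, Crygd, Cryga and Crybb1 among the UMIs of the 10 members (vertical axis, percent) at 0 to 6 spot spacings from the peak spot of each of the 5 lens centres (lines). Cryaa rises outward and Crygd falls outward most in E14.5 section C and E15.5 replicate 1.

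The step from lens to the rest of the head was measured as lens centre over spots away from the lens, meaning more than 3 spacings from any lens-marker spot. Cryaa was 329-fold, 489-fold and 676-fold higher in the centre in E14.5 replicate 2,3,4, E15.5 replicate 1 and E15.5 replicate 2,3,4. Crygd was 734-fold, 1482-fold and 922-fold higher and Crybb1 457-fold, 846-fold and 798-fold. Cryab was the exception, at 18.2-fold, 18.7-fold and 13.7-fold. On log2 ratios with 10 CPM added, all 10 members were above 1 in all 3 areas. Of all 16461 genes measured, 146 (0.887%) were, and 842 (5.12%) were above 0 in all 3. The 10 genes had a median of 8.71, against -0.25 over all genes. The first places in this order went to Crygd, Cryga and Crybb1, and Cryab was at place 19 and Crygs at 21. Without the 10 CPM added, Crygs was 223-fold, 891-fold and 958-fold higher in the centre. Its levels away from the lens were 0.414, 0.273 and 0.103 CPM. The centre was chosen by other genes of the same spots, so these ranks carry no test.

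Other crystallins and factors of the lens were read in the same way. Of 6 other family genes Cryge and Crygf had no row under these symbols in the count matrices, and Crygb, Crygc, Crygn and Crybb2 were above 0 in all 3 areas. Crygb had 14245, 12672, 4886, 18299 and 17907 CPM at the 5 centres, and Crygc had 17808, 10596, 10390, 22887 and 23157 CPM. Crybb2, which is known as a crystallin of the lens after birth, had no more than 13.5 CPM at any centre, where that value rests on 3 UMIs. Of 11 lens transcription factors, 9 were above 0 in all 3 areas and 7 were above 1, with a median of 2.03, although Foxe3 helped to choose the spots. Hsf4, a heat shock factor of lens fibers, had log2 ratios of 3.62, 3.36 and 4.18. Prox1 had 2.52, 3.59 and 3.04, Maf had 2.30, 2.44 and 2.35, and Pax6 had 2.18, 2.02 and 2.35. None of the 6 small heat shock proteins Hspb1, Hspb2, Hspb3, Hspb6, Hspb7 and Hspb8 was above 0 in all 3 areas and 4 were below 0 in all 3, with a median of -0.92. None of Crym, Cryl1 and Cryz, enzymes that serve as crystallins in other animals, was above 0 in all 3. Over all 16461 genes 842 (5.12%) were above 0 and 9998 below 0 in all 3, with a median of -0.25. Counts of this kind in lists of 6 and 3 genes therefore say little of them. CPM is a share of UMIs. In the centres of E14.5 replicate 2,3,4, E15.5 replicate 1 and E15.5 replicate 2,3,4 the 10 members held 23.1%, 17.9% and 31.2% of UMIs. That leaves a smaller share for every other gene there.

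Genes with the most similar pattern across tissue spots were ranked by the mean, over the 3 areas with lens spots, of the within-area Pearson correlation with the summed members on log2(CPM + 10). Of 13112 genes, Crygc (mean r = 0.81) and Crygb (0.78) came first. They were followed by the fiber membrane genes Lim2 (0.73) and Mip (0.72). The first 10 also held Crygn (0.69), the beaded filament gene Bfsp1 (0.65), the calpain Capn3 (0.56), Foxe3 (0.49) and the connexin Gja3 (0.48). These correlations are across spots, which share a library and differ in depth. Among the members themselves, the 28 pairs without Cryab and Crygs had a median r of 0.80, 0.85 and 0.85 over the tissue spots of the 3 areas. Cryab with the other 9 had medians of 0.38, 0.41 and 0.36. The neighbours Cryga and Crygd had 0.82, 0.87 and 0.89, and Cryba4 and Crybb1 had 0.82, 0.84 and 0.83. Away from the lens these were 0.55, 0.67 and 0.60 for Cryga and Crygd and 0.54, 0.54 and 0.44 for Cryba4 and Crybb1. The median of the 28 pairs there was 0.49, 0.60 and 0.48. Cryba4 and Crybb1 were below the median of the 28 pairs in both E15.5 areas, over all tissue spots and away from the lens.

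The level of the 9 genes without Cryab fell with distance from the lens centre. In E14.5 replicate 2,3,4 it was 229026 CPM in the centre, 59974 at 1 spacing, 19176 at 2, 5884 at 4, 1382 at 9 to 10 and 179 beyond 30. In E15.5 replicate 1 it was 175751 CPM in the centre, 63287 at 1 spacing, 20629 at 2, 3134 at 4, 1283 at 9 to 10 and 141 beyond 30. In E15.5 replicate 2,3,4 it was 309331 CPM in the centre, 35576 at 1 spacing, 14568 at 2, 11108 at 4, 1968 at 9 to 10 and 116 beyond 30. The 3 areas lay within a few fold of each other at each of these distances. The fall was broken in both areas with several sections. In E14.5 replicate 2,3,4 section C rose from 396 CPM at 16 to 20 spacings to 613 at 21 to 25 and 811 at 26 to 30, while section B went from 389 to 196 and 201 CPM. E15.5 replicate 2,3,4 rose at 11 to 15 spacings to 2577 CPM, above the 1968 of the distance before. A second, smaller peak lies there, in section A, 13 spacings from the centre. Its top spot had 3478 of 66716 UMIs (5.21%) in the 9 genes and 196 UMIs of the lens markers, and its 6 neighbours had 11131 to 42347 CPM. Whether it is a piece of lens tissue or displaced RNA was not tested. The summed level of the neuron list put that spot at the 94.6th percentile of its area.

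One section had lens-marker spots and no lens centre of its own. E14.5 section A had 6 lens-marker spots, and its nearest spots were 9 to 10 spacings from a centre in the neighbouring section C. The 9 genes had 3142 CPM in those spots, 1366 at 11 to 15 spacings, 717 at 16 to 20, 365 at 21 to 25, 122 at 26 to 30 and 95.6 beyond 30. At 9 to 10 spacings, where section A has 6 spots with 273 CPM of the lens markers, it was above the 1347 and 1341 CPM of sections B and C. The part of its own lens-marker spots in this decline was not tested.

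Cryab fell near the lens and went up and down farther out. In E14.5 replicate 2,3,4 it was 2376 CPM in the centre, 183 at 4 spacings, 73.1 at 9 to 10, 152 at 16 to 20, 158 at 26 to 30 and 49.5 beyond 30. In E15.5 replicate 1 it was 2943 CPM in the centre, 64.6 at 4 spacings, 113 at 9 to 10, 58.1 at 11 to 15, 231 at 21 to 25 and 210 beyond 30. In E15.5 replicate 2,3,4 it was 2409 CPM in the centre, 271 at 4 spacings, 169 at 9 to 10, 105 at 21 to 25 and 216 beyond 30. Beyond 30 spacings the 9 other genes together had 141 and 116 CPM in the E15.5 areas. They had 179 CPM in E14.5 replicate 2,3,4, where the median spot at that distance held 1560.5 UMIs.

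**Figure D4:**
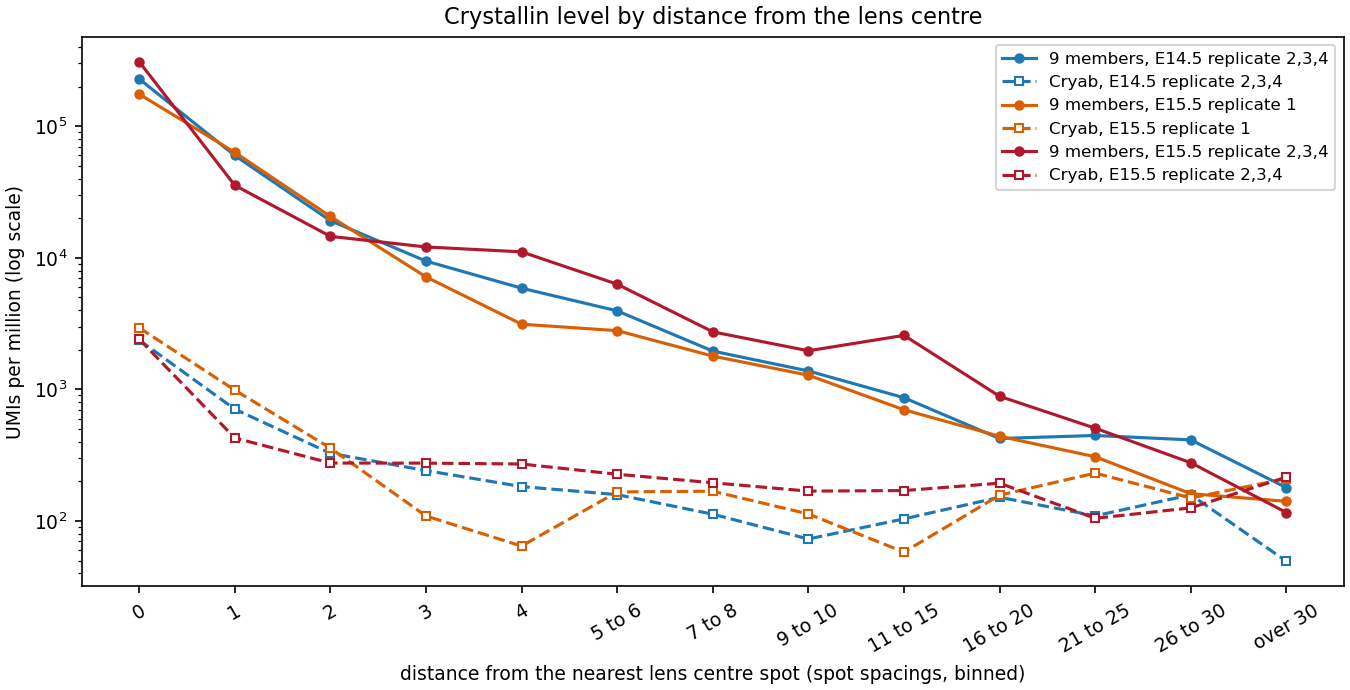
CPM (log axis) of the 9 members without Cryab (solid lines) and of Cryab (dashed lines) by distance from the nearest lens centre spot in binned spot spacings, for the 3 areas with a lens centre. The 9 genes fall from at least 175751 CPM in the centre to 116 to 179 CPM beyond 30 spacings, with a rise at 11 to 15 spacings in E15.5 replicate 2,3,4, while Cryab falls near the centre and then moves up and down between 49.5 and 231 CPM from 9 spacings outward.

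Away from the lens, a UMI of the 9 genes was still found in most spots of the areas that have a lens. The share of such spots with a UMI was 83.8%, 92.5% and 98.1% in E14.5 replicate 2,3,4, E15.5 replicate 1 and E15.5 replicate 2,3,4 and 9.95% in E14.5 replicate 1, where all spots count as away. With every spot thinned to 1000 UMIs the shares were 33.5%, 18.0%, 30.3% and 1.303%, leaving out 107, 0, 1 and 108 shallower spots. The level of the 9 genes away from the lens was 516, 240, 407 and 9.59 CPM in that order. The median depth of these spots was 38880, 63697, 48740 and 6752 UMIs. The order of the tissues differed between areas. Over 13 marker lists, the spots richest in a list (the top 5% of the area) ranged from 217 (skeletal muscle) to 852 CPM (neurons) in E14.5 replicate 2,3,4, from 34.8 (radial glia) to 437 CPM (bone) in E15.5 replicate 1 and from 82.8 (choroid plexus) to 557 CPM (skeletal muscle) in E15.5 replicate 2,3,4. Skeletal muscle was lowest in the first of these areas and highest in the last.

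In E14.5 replicate 1, the area without a lens, the 9 genes had 9.59 CPM (8.10 to 11.3). Of their 148 UMIs, 33 (22.3%) came from 4 adjacent shallow spots of 592 to 1595 UMIs. The other 115 were led by Crybb3 with 30, Crybb1 with 29 and Cryba4 with 25 UMIs, while Cryga had 5 and Crygd 4. Over the whole area Cryaa had 18 UMIs, or 1.17 CPM (0.691 to 1.84), and Crygd 8 UMIs, or 0.518 CPM (0.224 to 1.02). Cryba1 and Crygs had 1 UMI each. Those levels are the closest these data hold to a background for the 9 genes, in the shallowest of the 4 libraries.

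Cryab was different outside the lens: it was highest in skeletal muscle in every area. In the spots richest in the skeletal muscle list (Myh3, Myh8, Tnnt3, Ckm, Acta1 and Mylpf), it had 459, 524, 675 and 564 CPM in E14.5 replicate 1, E14.5 replicate 2,3,4, E15.5 replicate 1 and E15.5 replicate 2,3,4. The remaining spots away from the lens had 66.4, 87.4, 102 and 131 CPM. Muscle was thus 6.91-fold, 5.99-fold, 6.63-fold and 4.31-fold higher, in 4 of 4 areas, over 56, 108, 50 and 91 muscle-rich spots. Of the other 12 lists the highest was endothelium at 189, 147 and 135 CPM in the first 3 areas. The 189 rests on 19 UMIs. In the last area it was the choroid plexus list at 158 CPM, below the 177 CPM of the spots not rich in that list. The spots rich in it had 3564 CPM of the list itself, against 18774 CPM in E14.5 replicate 2,3,4. Neurons were lowest in 3 areas, at 22.9, 5.22 and 11.6 CPM, and choroid plexus was lowest in E14.5 replicate 2,3,4 at 26.8 CPM, with neurons at 27.4. Cryab therefore differed more than 10-fold between muscle-rich and neuron-rich spots of the same library.

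Most relatives of Cryab were also higher in muscle-rich spots. Hspb1 had 301, 308, 406 and 328 CPM in muscle-rich spots against 44.95, 86.5, 142 and 126 CPM in the remaining spots, but it was higher still in the spots richest in the surface epidermis list in 3 of 4 areas (386, 250, 864 and 524 CPM). Hspb7, a heart and muscle small heat shock protein, had 108, 101, 154 and 168 CPM against 12.2, 12.2, 15.7 and 22.2 CPM. Hspb2, which lies next to Cryab in the genome, had 44.95, 54.6, 115 and 72.5 CPM against 8.94, 8.09, 15.7 and 17.7 CPM. Hspb3 and Hspb8 were also higher in muscle in 4 of 4 areas, and Hspb6 was not, with 22.5, 19.7, 24.1 and 18.9 CPM against 21.6, 30.2, 25.5 and 24.6 CPM. Across spots away from the lens, Cryab and the summed muscle list had a Pearson r of 0.25, 0.64, 0.84 and 0.76 over 1106, 1773, 809 and 1199 spots. Cryab and the 9 other members had 0.0024, 0.096, 0.46 and 0.062 over the same spots. The 9 other members and the muscle list had -0.128, -0.0205, 0.48 and 0.0425, so in E15.5 replicate 1 they also rose with muscle.

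**Figure D5:**
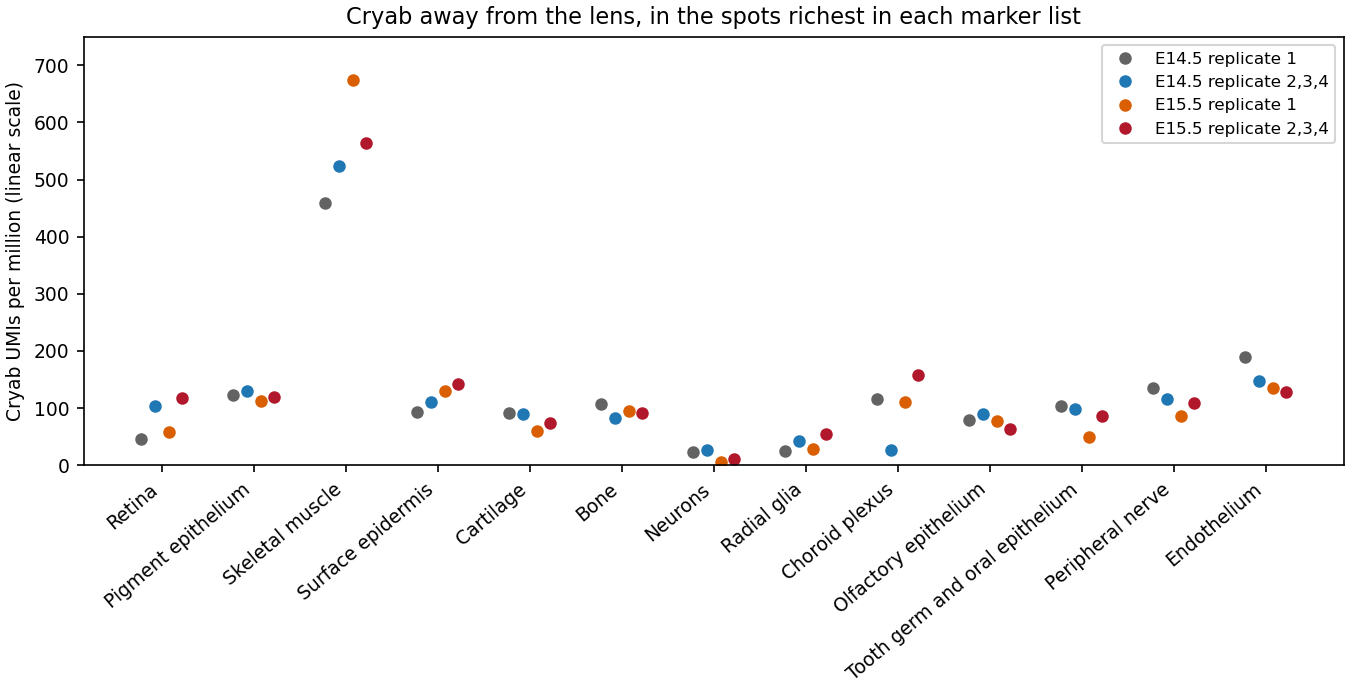
Cryab CPM (linear axis from 0) in the spots away from the lens that are richest in each of 13 marker lists, 1 point per capture area. Skeletal muscle lies between 459 and 675 CPM in the 4 areas, above every other list in the same area.

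The stage comparison asks whether crystallin RNA differed between E14.5 and E15.5. It used UMIs summed per area and edgeR's quasi-likelihood test, with Benjamini-Hochberg adjustment over all genes tested and a threshold of 0.1. Log2 fold changes are E15.5 over E14.5, with standard errors, and levels here are CPM after TMM scaling. In sums over a region, fewer cells of a type and less RNA per cell cannot be told apart.

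Most lens-marker spots lay outside the lens centre: 172 of 212 in E14.5 replicate 2,3,4, 46 of 51 in E15.5 replicate 1 and 247 of 285 in E15.5 replicate 2,3,4. Those outside held 10736684 of 12588790, 3005477 of 3227325 and 9483576 of 11123015 UMIs. The members made 1.95%, 1.62% and 1.52% of the UMIs outside the centre. In the lens-marker spots as a whole no member passed the test. Here E14.5 had 1 area and E15.5 had 2, so the spread came from the E15.5 areas and the lone E14.5 area was assumed to vary like them. Of 14009 genes, 5 (0.0357%) were called by edgeR, 2 (0.0143%) higher and 3 (0.0214%) lower at E15.5, 634 had an unadjusted p under 0.05, and DESeq2 called 4. None of the 5 is a crystallin: Gpi1 and Irak1 were higher at E15.5 and Ttr, Pax2 and Arhgef25 lower. Cryaa had 13159 CPM at E14.5 and 8311 and 13327 CPM in the E15.5 areas, a log2 fold change of -0.28 ± 0.53 (adjusted p = 0.987). Crygd had 9756 CPM at E14.5 and 3834 and 11952 CPM at E15.5 (-0.31 ± 0.56, adjusted p = 0.987). In both the E15.5 areas lay on both sides of the E14.5 area. Cryab had 646 CPM at E14.5 and 462 and 562 CPM at E15.5 (-0.34 ± 0.32, adjusted p = 0.970). Crybb1 had 6233 CPM at E14.5 and 4242 and 7544 CPM at E15.5 (-0.08 ± 0.49, adjusted p = 0.991). Crygs had 22.6 CPM at E14.5 and 34.5 and 20.3 CPM at E15.5 (0.25 ± 0.38, adjusted p = 0.981). The 10 fold changes had a median of -0.34, 9 of them below 0, where the median of all genes tested was 0.0089. That sign depends on the spots: with the lens-marker minimum raised to 5000 CPM, 9 of the 10 were above 0, with a median of 0.16.

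Over whole areas no gene of 15609 was called by edgeR (0%), 930 had an unadjusted p under 0.05, and DESeq2 called 37. No member passed with either tool. All 10 log2 fold changes were above 0, between 0.24 and 0.66, but for the 9 genes without Cryab the E14.5 areas differed far more than the stages. Cryaa had 1.16 and 1741 CPM in the E14.5 areas and 607 and 1772 CPM in the E15.5 areas (0.45 ± 1.81, adjusted p = 0.955). Cryab had 71.6 and 189 CPM against 170 and 216 CPM (0.57 ± 0.42, adjusted p = 0.777). Without E14.5 replicate 1, the area with no lens, 9 of the 10 were below 0, with a median of -0.52.

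In spots away from the lens no gene of 15305 was called by edgeR (0%), 465 had an unadjusted p under 0.05, and DESeq2 called 15, with no member among them. Of the 10 fold changes 6 were above 0 and 4 below, with a median of 0.09. Cryab came nearest, with 71.7 and 137 CPM at E14.5 and 157 and 170 CPM at E15.5 (0.65 ± 0.33, adjusted p = 0.927). Its 2 values per stage did not overlap, but how many of the 15305 genes separate in this way was not counted. Crygd had 0.516 and 63.9 CPM at E14.5 and 20.8 and 68.0 CPM at E15.5 (0.45 ± 1.35, adjusted p = 0.962), and Cryaa had 1.16 and 176 CPM against 103 and 99.5 CPM (0.18 ± 1.36, adjusted p = 0.988). Without E14.5 replicate 2,3,4 the log2 fold change of Cryaa was 6.45 ± 0.43, a comparison in which the remaining E14.5 area has no lens.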

How the data were processed

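The authors deposited Space Ranger output for 4 Visium capture areas: unnormalized UMI counts and the position of each spot. The submitters' processing notes name Space Ranger, Cell Ranger and mm10. The probe or capture chemistry per gene is not given in the sources used here. Tissue spots were kept without a further filter, 88 of them lying in no section of at least 100 spots, and 19 barcodes outside tissue were set aside. Distances are spot spacings on the hexagonal array. UMIs were summed per area and region and tested with edgeR 4.0.16 (TMM, filterByExpr) in R 4.3.3, with DESeq2 1.42.0 as the alternative. Nothing shows whether areas are separate litters, so p-values cover the spread between these areas only. The edgeR script was checked on simulated counts. Tables were made in Python 3.11.15 with pandas 2.3.3, numpy 2.4.6 and scipy 1.17.1, and figures with matplotlib 3.10.9. Gene positions come from GENCODE on GRCm38 and promoters from RefSeq. The members, marker lists, gene lists and the rule for named genes (all members, counts over lists, the 10 most similar genes) were chosen with earlier results of these data known. One lens marker, also among those 10, is not reported here. Alternatives were normalization, filters, depth, lens limits, distance, sections as samples, the replicate block and leaving out each area.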

Additional observations from a re-analysis of the deposited data

Results flagged for a closer look

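Barcodes outside tissue carried crystallin UMIs. In E14.5 replicate 2,3,4, 8 such barcodes held 329 member UMIs of 209555, or 1570 CPM, in 7 of the 8, where a count of 0 would have allowed up to 14.3 CPM. In E15.5 replicate 2,3,4, 11 such barcodes held 5825 member UMIs of 352936, or 16504 CPM, in all 11, against 8.50 CPM. No comparison above uses these barcodes, and the other 2 areas had none. Their part in the crystallin level away from the lens was not tested.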

How the results depend on the processing

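The 189 alternative values covered 21 results. Of these, 137 were labelled the same, 28 moved, 21 changed sign and 3 passed the threshold. Fold changes were the same if they kept their direction and their side of the threshold. Means were the same if they moved by less than the spread. Counts had to stay within a fixed ratio, and any change from or to 0 was a move. The thinned shares of spots were labelled moved without a limit. A stricter threshold reused the same fit, so its fold changes could not move. With the lens limit at 2000 and at 5000 CPM (both chosen after seeing the data) and with sections as samples, the log2 fold changes in lens-marker spots became 0.10, 0.17 and 0.12 for Cryaa, 0.078, 0.18 and 0.030 for Cryab, 0.33, 0.40 and 0.38 for Crybb1 and 0.13, 0.18 and 0.23 for Crygd. Crybb1 was also 0.015 without TMM and 0.13 with the limit doubled. No member was called in lens-marker spots under any alternative run. The 5 genes called there became 11 without TMM, 19 without a filter, 3 with at least 10 counts in every area, 18 after thinning, 62 with the limit halved, 3 with sections as samples, and 3 and 10 at 2000 and 5000 CPM. Genes called by DESeq2 were 37 over whole areas and 15 away from the lens. Away from the lens with the limit halved, Cryaa was -0.18 and Crygd -0.10. Leaving out each area gave 0 to 78 genes called over whole areas (78 without E15.5 replicate 1) and 0 to 165 away from the lens (165 without E15.5 replicate 1), with 0 to 1 members called there. It moved Cryaa from -0.55 to 10.0 (-0.50 without E15.5 replicate 2,3,4 and 1.02 without E15.5 replicate 1) and Cryab from 0.030 to 1.43 over whole areas, and Cryaa from -0.80 to 6.45 (0.16 without E15.5 replicate 1), Cryab from 0.25 to 1.19 and Crygd from -0.65 to 6.42 (-0.53 without E14.5 replicate 1 and 1.06 without E15.5 replicate 1) away from the lens. The cause was not tested. No area could be left out of the lens comparison, which would then have no E14.5 area or no residual degrees of freedom, and no replicate block could be fitted there for the same reason.

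The areas share replicate numbers across stages, but nothing in the labels pairs them and there are only 2 pairs. Same-numbered areas deviated together with r = 0.25 over 15609 genes. With the replicate number as a block, no gene was called over whole areas. Away from the lens 436 of 15305 genes were called (131 higher and 305 lower at E15.5). They included 4 of the 10 members: Cryaa (2.24), Cryga (1.97), Crygd (1.97) and Crybb1 (1.55). In the pair of replicate 1 areas, the E14.5 area has no lens and the E15.5 area has one. With only 2 pairs this fit leaves few residual degrees of freedom.

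The crystallin share of UMIs in lens-marker spots was 4.57% (SD 1.64, n = 3 areas). It was 2.45% and 7.08% with the limit halved and doubled, 16.3% at 2000 and 24.1% at 5000 CPM, and 3.90% to 5.48% leaving out each area. The level of the 9 members without Cryab at 4 to 6 spacings from a lens-marker spot was 870 CPM (SD 61.6, n = 3 areas), and 324, 1351, 2888 and 5105 CPM at those limits. The share of spots away from the lens with a UMI of the 9 members was 9.95%, 83.8%, 92.5% and 98.1% in the order of the areas, and 1.303%, 33.5%, 18.0% and 30.3% after thinning. Depth limits E14.5 replicate 1 most, where a count of 0 allows up to 0.194 CPM.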

Other observations

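E14.5 replicate 1 has no lens, but its spots can be read at the array addresses that are lens centre in another area. The 22 such spots had 6 UMIs of the 9 members without Cryab, or 57.0 CPM, against 9.26 CPM in its other 1084 spots. In the other areas, the spots away from the lens at such addresses had 438 CPM against 516 in E14.5 replicate 2,3,4, 61.0 against 244 in E15.5 replicate 1 and 559 against 407 in E15.5 replicate 2,3,4, the last from 1 spot.

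The mix of the 9 members was not the same far from the lens as in the centre. Beyond 20 spacings from a centre Cryaa made 34.0% of their UMIs in E14.5 replicate 2,3,4, 44.8% in E15.5 replicate 1 and 27.1% in E15.5 replicate 2,3,4, against 24.2%, 28.9% and 22.5% in the centre. Crygd made 10.7%, 6.48% and 14.0% there, against 19.6%, 17.6% and 21%. Between the lenses of E14.5 sections B and C, Cryaa made 18.6% and 26.6% in the centre and 33.5% and 33.4% at 21 to 25 spacings. In E14.5 replicate 1 Cryaa made 12.2% (7.37 to 18.5, exact binomial interval) and Crybb1 led with 23.0% (16.5 to 30.6) of 148 UMIs.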
